A study of Homo sapiens with 2 samples.

Results

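The BCL2 family decides whether a cell's mitochondria release the factors that start apoptosis, and 10 of its genes were followed here among the 36601 genes of each matrix. They were taken by symbol from both matrices and fall into 3 roles. BCL2, BCL2L1 and MCL1 are anti-apoptotic, BAX and BAK1 are the effectors, and BCL2L11, BAD, BID, BBC3 and PMAIP1 are BH3-only genes. All 10 symbols were found once in each matrix and all 10 held UMIs in both. The cells were LNCaP_FGC, the standard LNCaP line of human prostate carcinoma origin, and LNCaP_C4-2B, its castration-resistant descendant. Both were grown untreated in RPMI1640 with 10% FBS and 1% Pen/Strep, and 1 single-cell 3′ library was made from each line. The batch label differed between the 2 libraries, and an effect of batch cannot be told apart from one of strain. With 1 library per line there were no replicates and no test, and every interval given is a 95% interval that covers counting error only.

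Apoptosis through mitochondria needs BAX or BAK1, whose products assemble in the outer mitochondrial membrane and make it permeable, so that cytochrome c reaches the caspases. The products of BCL2, BCL2L1 and MCL1 bind and hold back the effectors and the BH3-only proteins. BH3-only proteins carry stress signals to this membrane, and many of them are controlled by transcription, for example by p53. Prostate cancer cells are known to lean on MCL1 and on the BCL2L1 product BCL-xL, and levels of the transcripts do not give the levels of the proteins.

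The promoters of PMAIP1, BBC3 and BAX are shown because these members moved with cell cycle phase or with p53 target genes among the cells of both lines. Each run holds the 250 bases before a RefSeq start site (GRCh38.p14), read 5′ to 3′ on the strand of the gene, and capitals mark the GC box GGGCGG and the CCAAT box on either strand. The PMAIP1 run is chr18:59899746-59899995 on the plus strand, the BBC3 run is chr19:47232668-47232917 on the minus strand, and the BAX run is chr19:48954625-48954874 on the plus strand.
PMAIP1: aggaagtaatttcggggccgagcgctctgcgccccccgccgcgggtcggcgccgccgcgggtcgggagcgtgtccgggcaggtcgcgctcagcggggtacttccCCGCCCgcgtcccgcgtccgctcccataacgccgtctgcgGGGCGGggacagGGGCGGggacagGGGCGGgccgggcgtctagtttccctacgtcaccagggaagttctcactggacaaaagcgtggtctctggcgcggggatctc
BBC3: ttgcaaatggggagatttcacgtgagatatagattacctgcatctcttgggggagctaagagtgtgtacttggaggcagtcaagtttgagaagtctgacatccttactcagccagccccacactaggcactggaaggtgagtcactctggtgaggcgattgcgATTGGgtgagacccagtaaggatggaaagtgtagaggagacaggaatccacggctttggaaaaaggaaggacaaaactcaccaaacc
BAX: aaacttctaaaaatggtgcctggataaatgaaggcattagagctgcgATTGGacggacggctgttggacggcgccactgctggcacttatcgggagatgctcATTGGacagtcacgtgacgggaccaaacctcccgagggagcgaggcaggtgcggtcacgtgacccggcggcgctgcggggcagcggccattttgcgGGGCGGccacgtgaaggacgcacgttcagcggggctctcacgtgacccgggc

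The PMAIP1 run held 4 GC boxes and no CCAAT box, the BBC3 run held 1 CCAAT box and no GC box, and the BAX run held 2 CCAAT boxes and 1 GC box. RefSeq promoters were matched for 9 of the 10 members, in 15 windows, and the one for MCL1 was not analysed here. The GC box occurred in 6 of these 9 members and in 42.6% of 35116 promoters, and the CCAAT box in 5 of the 9 and in 32% of all promoters. The forkhead motif GTAAACA occurred in 1 member, BCL2L11, and in 2.98% of all promoters. A member was counted if any of its windows held the motif, and BID had 5 windows. The shares over all promoters are of single windows, so the members' counts and these shares are unlike measures. The E2F motif (TTTCCCGC, TTTGGCGC, TTTCGCGC or TTTGCCGC; 2.79% of all promoters), the ATF4 motif TGATGNAA (3.14%), the CHR motif (TTTGAA or TTCGAA; 14.3%) and a full p53 site (0.0256%) had no match in any of the 15 windows, which covers these letters in these windows alone.

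Each library held 1850 cells. The LNCaP_FGC library held 35150013 UMIs (median per cell 18292) and the LNCaP_C4-2B library 35149989 UMIs (median 17566.5). Levels are given as CPM, UMIs scaled to a common library total, and since this chemistry counts 1 tag per transcript molecule, CPM needs no correction for length between genes, although capture may still differ between them. The mitochondrial share was 6.27% in LNCaP_FGC and 8.35% in LNCaP_C4-2B, and the libraries shared 0 cell barcodes. All 12 luminal prostate markers were present in both libraries, with a summed level of 3821 CPM in LNCaP_FGC and 5957 CPM in LNCaP_C4-2B. The summed fibroblast, immune and endothelial or erythroid markers stood between 1.48 and 22.7 CPM in LNCaP_FGC and between 1.62 and 2.16 CPM in LNCaP_C4-2B. COL1A2, DCN, PTPRC, CD3D and CDH5 had 0 UMIs in both. Other genes of these lists were present, with ACTA2 at 600 UMIs in LNCaP_FGC (17.1 CPM) and 20 in LNCaP_C4-2B (0.569 CPM). COL1A1 had 177 and 30 UMIs, VWF 122 and 32, and CD68 50 and 74. No cell type that lacks the BCL2 family was in these libraries, so the share of UMIs from free RNA could not be measured.

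The first comparison asks how the family differs between LNCaP_C4-2B and its parental line. Together the 10 members held 10131 UMIs (288 CPM) in LNCaP_FGC and 8685 UMIs (247 CPM) in LNCaP_C4-2B. The anti-apoptotic genes were all lower in LNCaP_C4-2B by CPM, with MCL1 furthest in absolute level, while BAX and BID were higher. The CPM ratio of the median gene was -0.43 on the log2 scale (LNCaP_C4-2B over LNCaP_FGC), so each member was also read against that gene. A gene at least 1.5-fold away from the median gene was counted as higher or as lower. By that rule 3 of 10 members were higher (BAX, BID and BBC3), beside 23.8% of the 14142 genes with at least 50 UMIs. Another 3 were lower (BCL2, MCL1 and BCL2L11), beside 23.4% of the genes. The members' median log2 ratio, with that of the median gene set to 0, was -0.34. Shares of this size do not set the family apart from other genes.

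**Figure D1:**
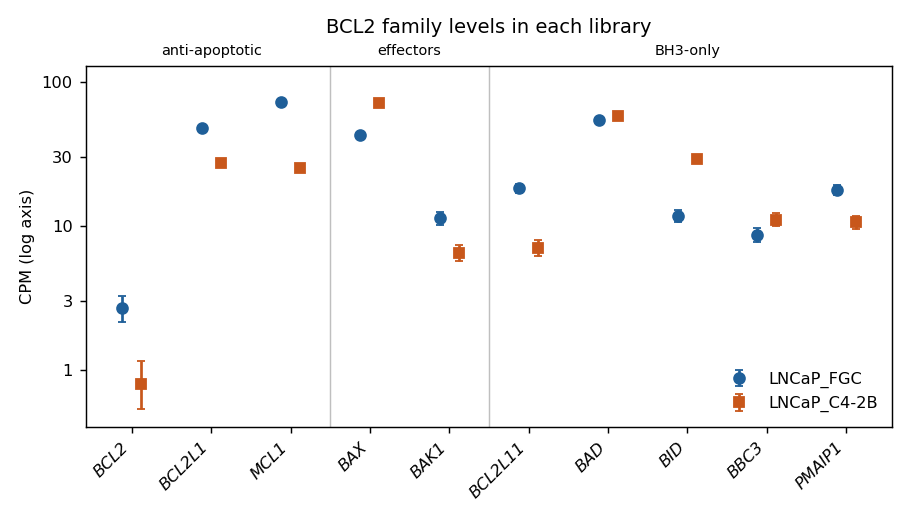
CPM of the 10 members in LNCaP_FGC (blue circles) and LNCaP_C4-2B (orange squares) on a log axis, grouped by role, with exact Poisson 95% intervals. MCL1 stood at 72.5 CPM in LNCaP_FGC and 25.4 CPM in LNCaP_C4-2B, and BAX at 43.1 CPM and 71.5 CPM.

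MCL1, a short-lived guard against BAK1 and BCL2L11 (chromosome 1, 150560895 to 150579738, minus strand, in GENCODE 44 on GRCh38), held 2547 UMIs in LNCaP_FGC (72.5 CPM, 69.7 to 75.3) and 892 in LNCaP_C4-2B (25.4 CPM, 23.7 to 27.1). It was 2.86-fold lower in LNCaP_C4-2B (2.64 to 3.09) and the member with the highest level in LNCaP_FGC. BCL2L1, which encodes BCL-xL (chromosome 20, 31664452 to 31723989, minus strand), stood at 47.6 CPM in LNCaP_FGC and 27.3 CPM in LNCaP_C4-2B. Its ratio was 1.74-fold lower (1.61 to 1.89), which lay within 1.5-fold of the median gene. BCL2, the founding member of the family (chromosome 18, 63123346 to 63320128, minus strand), had only 94 UMIs in LNCaP_FGC and 28 in LNCaP_C4-2B, or 2.67 and 0.797 CPM (3.36-fold lower, 2.18 to 5.32). BCL2 made up 2.18% of anti-apoptotic UMIs in LNCaP_FGC and 1.49% in LNCaP_C4-2B, so the anti-apoptotic side of both libraries was MCL1 and BCL2L1. MCL1 led that side in LNCaP_FGC, with 59% of it (57.6 to 60.5) beside 38.8% for BCL2L1 (37.3 to 40.3). In LNCaP_C4-2B, MCL1 held 47.5% (45.2 to 49.8) and BCL2L1 51% (48.8 to 53.3), with intervals that overlapped.

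BAX, the effector that moves from the cytosol to mitochondria on activation (chromosome 19, 48954815 to 48961798, plus strand), held 1514 UMIs in LNCaP_FGC (43.1 CPM, 40.9 to 45.3) and 2514 in LNCaP_C4-2B (71.5 CPM, 68.8 to 74.4). It was 1.66-fold higher in LNCaP_C4-2B (1.56 to 1.77) and was the member with the highest level there. BAK1, the effector that resides on mitochondria (chromosome 6, 33572547 to 33580293, minus strand), went the other way, at 11.3 CPM in LNCaP_FGC and 6.49 CPM in LNCaP_C4-2B. It was 1.74-fold lower by CPM (1.47 to 2.05), within 1.5-fold of the median gene (-0.36 on the log2 scale), but counted as lower with each cell at equal depth (-0.71). The ratio of the effectors to each other therefore differed between the libraries, with BAX taking 26% of pro-apoptotic UMIs and BAK1 6.81% in LNCaP_FGC, and 36.9% and 3.35% in LNCaP_C4-2B.

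BID, whose product links death receptors to mitochondria after cleavage by caspase 8 (chromosome 22, 17734138 to 17774770, minus strand), was the pro-apoptotic member furthest from the median gene. It held 410 UMIs in LNCaP_FGC (11.7 CPM) and 1031 in LNCaP_C4-2B (29.3 CPM), a 2.51-fold higher level (2.24 to 2.83). BCL2L11, which encodes BIM, a binder of all the anti-apoptotic proteins (chromosome 2, 111119378 to 111168444, plus strand), stood at 18.2 CPM in LNCaP_FGC and 7 CPM in LNCaP_C4-2B. It was 2.60-fold lower in LNCaP_C4-2B (2.24 to 3.03). A lower BCL2L11 thus stood beside a higher BID in the same library. PMAIP1, which encodes NOXA, a selective binder of MCL1 (chromosome 18, 59899996 to 59904305, plus strand), was at 17.9 CPM in LNCaP_FGC and 10.6 CPM in LNCaP_C4-2B (1.68-fold lower, 1.48 to 1.92). BBC3, which encodes PUMA (chromosome 19, 47220822 to 47232766, minus strand), was at 8.62 CPM in LNCaP_FGC and 11 CPM in LNCaP_C4-2B (1.28-fold higher, 1.10 to 1.49). BAD, whose product is held in check by AKT through phosphorylation (chromosome 11, 64269830 to 64284704, minus strand), was nearly level at 54.8 CPM in LNCaP_FGC and 57.6 CPM in LNCaP_C4-2B, a ratio of 1.05 (0.988 to 1.12).

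In LNCaP_FGC the order of levels was MCL1, BAD, BCL2L1, BAX, BCL2L11, PMAIP1, BID, BAK1, BBC3 and BCL2. The intervals of BCL2L11 and PMAIP1 overlapped, as did those of BID and BAK1. In LNCaP_C4-2B the order was BAX, BAD, BID, BCL2L1, MCL1, BBC3, PMAIP1, BCL2L11, BAK1 and BCL2. There the intervals overlapped for BID and BCL2L1, BCL2L1 and MCL1, BBC3 and PMAIP1, and BCL2L11 and BAK1. MCL1 thus went from the first place to the fifth. BAD overlaps GPR137 on the other strand (831 UMIs in the LNCaP_FGC library and 688 in the other), and BCL2L11 overlaps MIR4435-2HG (16 and 191 UMIs), while MCL1 overlaps ADAMTSL4 (47 and 21 UMIs). Whether the counting used strand was not stated in the sources at hand, so reads of these pairs may not be told apart.

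No member changed direction between the libraries by plain CPM, relative to the median gene, by TMM factors, by median-of-ratios factors, or when the totals left out mitochondrial and ribosomal protein genes. On plain CPM, without the median gene as reference, 2 members were higher (BAX and BID) and 6 were lower. BCL2L1, BAK1 and PMAIP1 were the 3 that joined BCL2, MCL1 and BCL2L11 among the lower. Within cell cycle phases, MCL1 was 2.74-fold lower in G1 cells of LNCaP_C4-2B (2.45 to 3.08), 3.41-fold lower in S cells (2.87 to 4.08) and 2.72-fold lower in G2M cells (2.39 to 3.11). BID was between 2.29-fold and 2.83-fold higher in the 3 phases. BAX was at 43.6 CPM in G1 cells of LNCaP_FGC and 65.5 CPM in those of LNCaP_C4-2B, and was 1.93-fold higher in S cells (1.70 to 2.20) and 1.68-fold higher in G2M cells. The differences in MCL1, BID and BAX between the libraries were therefore seen at every phase.

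The balance of the family was taken as the log2 ratio of summed anti-apoptotic to summed pro-apoptotic UMIs, a ratio within a library in which the scaling between libraries cancels. It was -0.43 in LNCaP_FGC (-0.49 to -0.37), from 4314 anti-apoptotic and 5817 pro-apoptotic UMIs. In LNCaP_C4-2B it was -1.86 (-1.93 to -1.78), from 1879 and 6806 UMIs. LNCaP_FGC thus had 1.35 pro-apoptotic UMIs for each anti-apoptotic one and LNCaP_C4-2B 3.62. The difference between the libraries was -1.43 on the log2 scale (-1.52 to -1.33). By level, the anti-apoptotic sum was 123 CPM in LNCaP_FGC and 53.5 CPM in LNCaP_C4-2B, the effectors 54.3 and 78 CPM, and the BH3-only genes 111 and 116 CPM. The BH3-only sum was therefore close between the libraries although BID and BCL2L11 had moved apart. The sign in LNCaP_FGC depended on the members chosen, at 1.18 with the effectors alone as the pro-apoptotic side and 0.0037 without BAX. The lower balance of LNCaP_C4-2B did not, with differences between -1.72 and -1.07 over 6 other choices of members or depth.

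**Figure D2:**
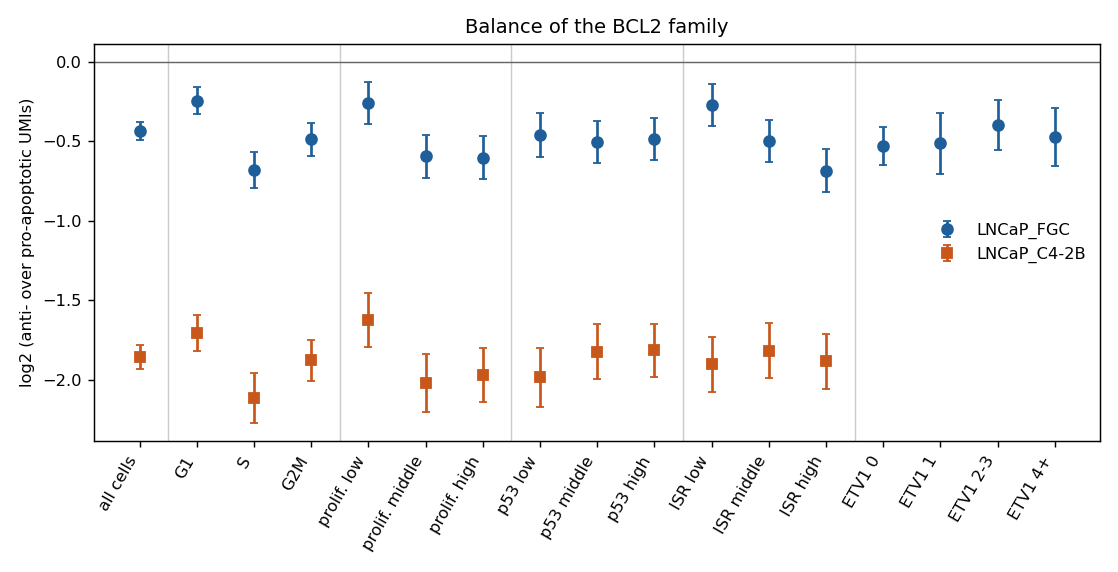
Balance of the family, as log2 of anti-apoptotic over pro-apoptotic UMIs with 95% intervals, in all cells, by cell cycle phase, by tertile of the proliferation, p53 target and integrated stress response (ISR) scores, and by ETV1 UMIs per cell (LNCaP_FGC only). Values for LNCaP_FGC (blue circles) lay between -0.24 and -0.68, and those for LNCaP_C4-2B (orange squares) between -1.62 and -2.11.

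The same UMIs were also counted cell by cell, so the shares below restate the sums above and are not separate evidence. Each cell was thinned to 11901 UMIs, which left 1623 LNCaP_FGC and 1665 LNCaP_C4-2B cells. Pro-apoptotic UMIs outnumbered anti-apoptotic ones in 50.6% of LNCaP_FGC cells (48.1 to 53) and 73.3% of LNCaP_C4-2B cells (71.1 to 75.4). The reverse held in 28.3% of LNCaP_FGC cells (26.2 to 30.6) and 9.31% of LNCaP_C4-2B cells (7.96 to 10.8). No UMI of BCL2, BCL2L1 or MCL1 was found in 24.5% of LNCaP_FGC cells (22.4 to 26.6) and 54.1% of LNCaP_C4-2B cells (51.6 to 56.5), at means of 1.45 and 0.629 anti-apoptotic UMIs per cell. Such a cell is one in which none was detected at this depth, not one without these transcripts.

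Detection of the members among cells was near that given by Poisson counting, at means between 0.0126 and 0.856 UMIs per cell. At such low means, real differences among cells can go unseen by this measure. BBC3 and PMAIP1 did differ among cells ranked by gene scores, as given further below. MCL1 had a UMI in 56.1% of LNCaP_FGC cells, where its mean gives 57% by Poisson counting, and in 24% of LNCaP_C4-2B cells, where the mean gives 25.1%. BAX had a UMI in 39.3% of LNCaP_FGC cells (41.1% by its mean) and 55.4% of LNCaP_C4-2B cells (57.5%). Before thinning the shares were 70.3% and 36.1% for MCL1 and 51.7% and 67.6% for BAX. The variance over the mean lay between 0.95 and 1.33 for all members, highest for BBC3 in LNCaP_FGC (1.33) and for PMAIP1 in LNCaP_C4-2B (1.22), but BBC3 in LNCaP_FGC was at 1.17 under another draw of the thinning. Across the cells of a library, which share its preparation and depth, no gene reached a Pearson r of 0.2 with any member that had at least 500 UMIs. The highest r was 0.16, so no gene is named as having a like pattern.

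ETV1, an ETS transcription factor that is rearranged in LNCaP, was found with 5426 UMIs in the LNCaP_FGC library and with 0 in that of LNCaP_C4-2B, so dependence on ETV1 was examined within LNCaP_FGC. At equal depth 628 LNCaP_FGC cells had 0 ETV1 UMIs, 255 had 1, 430 had 2 to 3, and 310 had at least 4. A count of 0 does not show that a cell lacks ETV1 transcripts. The cells with 0 were compared with the 740 cells holding at least 2. Of the 9 members with at least 50 UMIs over both groups of cells, 0 were higher by the 1.5-fold rule, beside 4.26% of 11475 genes, and 0 were lower, beside 4% of them. BCL2 had 42 UMIs in all and was not counted. Their median was 0.16 on the log2 scale relative to the median gene.

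BAX and BCL2L11 came closest to the limit among those counted. BAX stood at 52.5 CPM in cells with 0 ETV1 UMIs, 43.8 CPM with 1, 39.7 CPM with 2 to 3 and 35.8 CPM with at least 4, so its level was lower in each class with more ETV1. The ratio of cells with 0 to cells with at least 2 was 1.38 (1.19 to 1.60). BCL2L11 was at 23.4 CPM in cells with 0 and 17.4 CPM in cells with at least 2, a ratio of 1.35 (1.08 to 1.69), without an ordered course over the classes. BAK1 had a ratio of 1.31 (0.987 to 1.75), at 14.2 and 10.8 CPM.

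**Figure D3:**
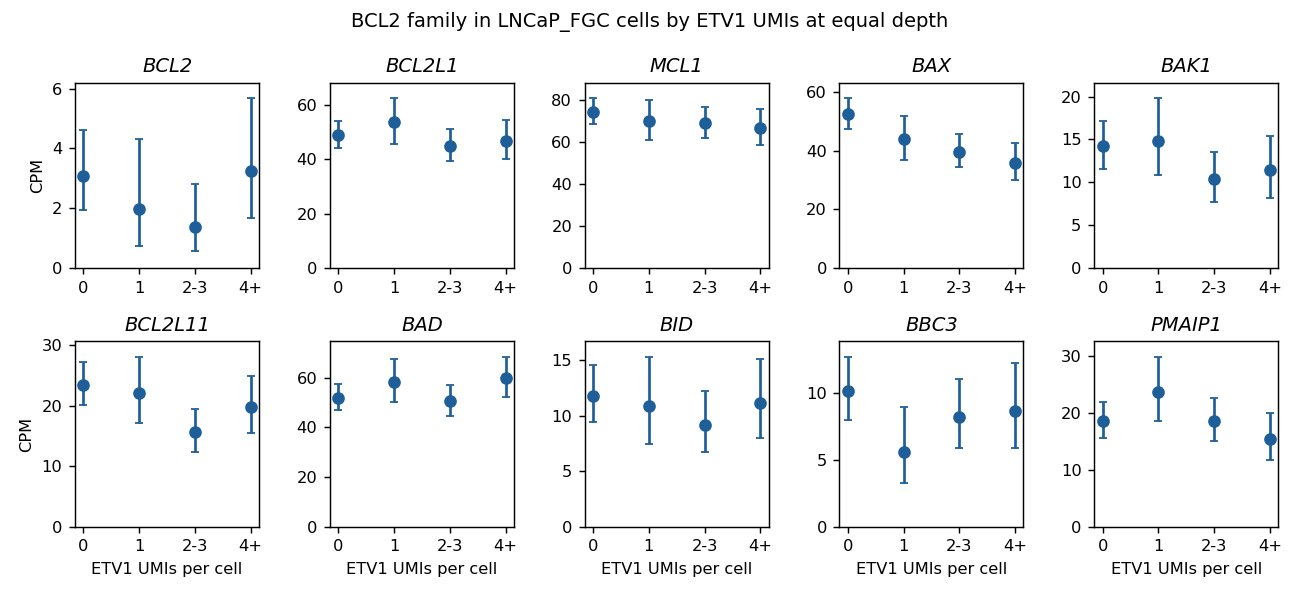
CPM of each member in LNCaP_FGC cells with 0, 1, 2 to 3, or at least 4 ETV1 UMIs at equal depth, with exact Poisson 95% intervals and axes from 0. BAX went from 52.5 to 35.8 CPM along the classes, and the intervals of the other 9 members overlapped in most pairs of classes.

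The remaining members lay nearer to 1. MCL1 was at 74.5 CPM without ETV1 and 68.1 CPM with it, a ratio of 1.09 (0.973 to 1.23), and BCL2L1 at 49 and 45.8 CPM, a ratio of 1.07 (0.926 to 1.24). BAD had a ratio of 0.954 (0.833 to 1.09), BID 1.18 (0.867 to 1.60), BBC3 1.21 (0.867 to 1.69) and PMAIP1 1.08 (0.85 to 1.37). These intervals hold 1 along with smaller differences in both directions, which were not detectable at this depth. The balance was -0.53 without ETV1 and -0.43 with it, a difference of -0.099 (-0.27 to 0.071). By level, the anti-apoptotic sum was 127 CPM without ETV1 and 116 CPM with it, and the BH3-only genes 116 and 107 CPM. The effectors were at 66.6 and 48.8 CPM, so the difference was larger with the effectors alone as the pro-apoptotic side, as given in the last section.

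Other features moved with ETV1 among these cells. KLK3, the gene of prostate-specific antigen, was at 209 CPM in cells with 0 ETV1 UMIs and 1318 CPM in cells with at least 2, and 40.4% of the former and 48.1% of the latter were in G1. Within phases the BAX ratio was 1.30 in G1 cells (1.04 to 1.62), 1.48 in S cells (1.08 to 2.04) and 1.46 in G2M cells (1.11 to 1.92). Among cells at or above the library median of KLK3 it was 0.998 (0.688 to 1.41), with BAX at 36.2 CPM on both sides, from 86 cells without and 624 with ETV1. In that comparison BBC3 was at 2.93 CPM without ETV1 and 7.54 CPM with it, a ratio of 0.389 (0.0778 to 1.20).

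The cells of LNCaP_FGC without ETV1 UMIs still differed from LNCaP_C4-2B, in a comparison added after the data were seen. MCL1 was at 74.5 CPM in them and 24.3 CPM in LNCaP_C4-2B at the same depth (3.07-fold lower, 2.71 to 3.48), and BCL2L11 at 23.4 and 7.01 CPM (3.34-fold lower, 2.66 to 4.20). BID was at 11.8 and 28.9 CPM (2.46-fold higher, 1.96 to 3.11). BAX, at 52.5 and 71.9 CPM, had a ratio of 1.37 (1.23 to 1.54). Against these cells the differences in MCL1, BCL2L11 and BID were thus as large as against all LNCaP_FGC cells, allowing for their intervals, and that in BAX was smaller in size. BAK1, at 14.2 and 5.75 CPM, was counted as lower in LNCaP_C4-2B in this comparison (2.47-fold, 1.87 to 3.24).

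Dependence on proliferation was first examined by cell cycle phase, called from 43 S and 54 G2M genes that hold no member. LNCaP_FGC had 804 G1, 463 S and 583 G2M cells, and LNCaP_C4-2B had 904, 390 and 556. PMAIP1 was higher and BBC3 lower in S and G2M cells than in G1 cells, in both lines. In S cells of LNCaP_FGC, 3 of 10 members were higher than in G1 (BCL2, BCL2L11 and PMAIP1; 10.4% of genes) and 1 was lower (BBC3; 6.27%). In G2M cells of LNCaP_FGC, 2 were higher (BCL2 and PMAIP1; 9.84% of genes) and 1 lower (BBC3; 7.9%). In LNCaP_C4-2B, 9 members had enough UMIs to be counted. There PMAIP1 was the 1 member higher in S (10.5% of genes) and in G2M (9.19%), and BBC3 the 1 member lower in S (7.78%) and in G2M (7.77%).

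PMAIP1 stood at 11.4 CPM in G1, 27.4 CPM in S and 18.7 CPM in G2M cells of LNCaP_FGC, which is 2.39-fold higher in S than in G1 (1.96 to 2.93) and 1.64-fold higher in G2M (1.33 to 2.01). In LNCaP_C4-2B it stood at 6.39, 13.6 and 14.2 CPM, 2.12-fold higher in S (1.61 to 2.81) and 2.23-fold higher in G2M (1.72 to 2.89). The peak was in S in LNCaP_FGC, and S and G2M were alike within their intervals in LNCaP_C4-2B. The printed window of the PMAIP1 promoter held no match to the E2F or CHR letters.

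BBC3 had the opposite course, at 11 CPM in G1, 6.29 CPM in S and 7.33 CPM in G2M cells of LNCaP_FGC, or 1.75-fold lower in S (1.29 to 2.41) and 1.51-fold lower in G2M (1.15 to 1.99). In LNCaP_C4-2B it went from 14.1 CPM in G1 to 9.52 CPM in S (1.48-fold lower, 1.14 to 1.94) and 8.07 CPM in G2M (1.74-fold lower, 1.36 to 2.25). With each cell at equal depth, BBC3 no longer reached the limit in G2M cells of LNCaP_FGC (-0.45 on the log2 scale relative to the median gene) or in S cells of LNCaP_C4-2B (-0.44).

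**Figure D4:**
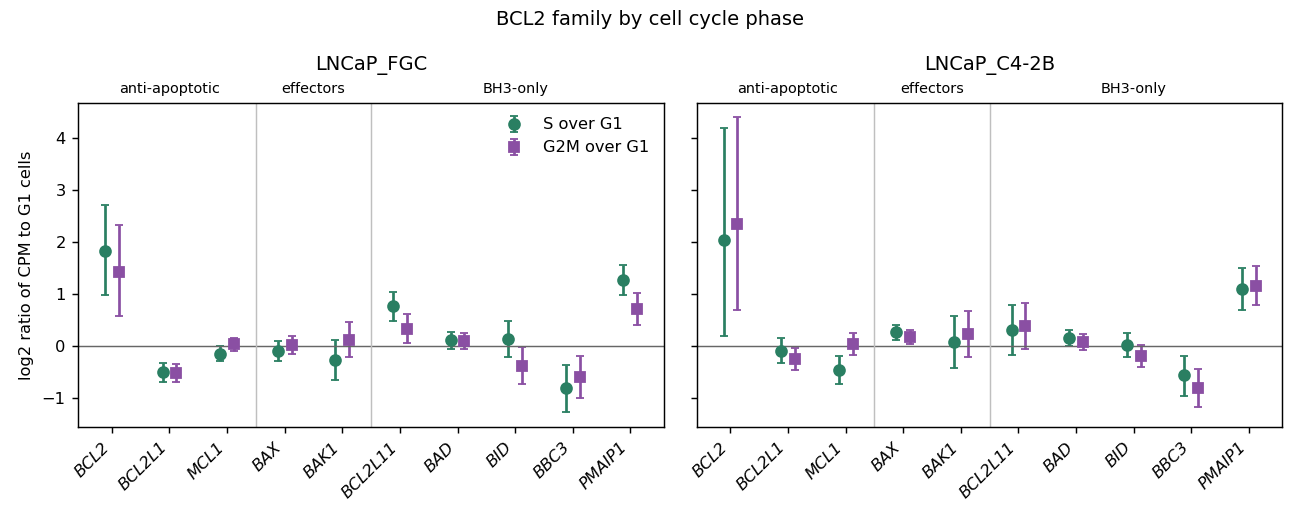
The log2 ratio of CPM in S (green circles) and G2M cells (purple squares) to G1 cells of the same library, for each member, with exact 95% intervals. PMAIP1 lay above 0 and BBC3 below 0 in both libraries, and the intervals of BCL2 were wide since it had 4 UMIs in G1 cells of LNCaP_C4-2B.

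Among the anti-apoptotic genes, BCL2L1 was at 57.5 CPM in G1, 40.6 CPM in S and 40.2 CPM in G2M cells of LNCaP_FGC, 1.43-fold lower in G2M (1.28 to 1.61) and just inside the limit. In LNCaP_C4-2B it was at 29.2, 27.5 and 24.6 CPM. MCL1 was level in LNCaP_FGC, at 73.9, 66.6 and 75.3 CPM, and in LNCaP_C4-2B it was at 26.9 CPM in G1, 19.5 CPM in S (1.38-fold lower, 1.15 to 1.66) and 27.6 CPM in G2M. With each cell at equal depth, MCL1 passed the limit in these S cells (-0.79 on the log2 scale relative to the median gene). BCL2 was at 1.22 CPM in G1, 4.31 CPM in S and 3.27 CPM in G2M cells of LNCaP_FGC, from 18, 39 and 37 UMIs, and rested on 4, 9 and 15 UMIs in LNCaP_C4-2B. BCL2 was thus higher outside G1, on few UMIs.

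Among the pro-apoptotic genes, BCL2L11 was at 14.4 CPM in G1, 24.4 CPM in S and 18.2 CPM in G2M cells of LNCaP_FGC (1.69-fold higher in S, 1.40 to 2.05), and at 6.06, 7.49 and 7.90 CPM in LNCaP_C4-2B. BAX was level in LNCaP_FGC, at 43.6, 40.8 and 44.2 CPM, and was at 65.5, 78.7 and 74.2 CPM in LNCaP_C4-2B (1.20-fold higher in S, 1.09 to 1.33). BAD stayed between 52.7 and 61.3 CPM in every phase of both lines. BID and BAK1 were within 1.5-fold of the median gene in both phases of both lines. The balance was lowest in S in both lines, at -0.68 in LNCaP_FGC and -2.11 in LNCaP_C4-2B, against -0.24 and -1.70 in G1. The step from G1 to S was -0.44 in LNCaP_FGC (-0.58 to -0.29) and -0.41 in LNCaP_C4-2B (-0.60 to -0.21), so it was of like size at a different base.

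Cells of each library were then ranked at equal depth by the summed UMIs of the 97 phase genes and cut into tertiles, which are ranges of a score and not cell types. PMAIP1 went from 10.7 CPM in the low tertile to 20.2 CPM in the middle and 25.5 CPM in the high tertile of LNCaP_FGC, and from 7.12 to 11.5 and 14.8 CPM in LNCaP_C4-2B. BCL2L1 was lower with each tertile in LNCaP_FGC, at 59.2, 45.5 and 40.1 CPM. BAX was flat there, at 45.5, 43.3 and 44.7 CPM, but stood at 63.3, 71.2 and 81.3 CPM in LNCaP_C4-2B. Almost all cells of the low tertile were in G1 (100% in LNCaP_FGC and 99.5% in LNCaP_C4-2B) and 0 cells of the high one were. Ranked among G1 cells alone, an alternative added after the data were seen, PMAIP1 was 1.84-fold higher in the high tertile of LNCaP_FGC (1.11 to 3.13), but its ratio in LNCaP_C4-2B was 0.783 (0.398 to 1.52).

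The same ranking was made with 24 p53 target genes, a list that holds no member although BAX, BBC3 and PMAIP1 are themselves known p53 targets. BBC3 stood at 4.97, 5.75 and 15.2 CPM in the low, middle and high tertile of LNCaP_FGC, 3.06-fold higher in the high than in the low one (2.04 to 4.72). In LNCaP_C4-2B it stood at 6.06, 8.93 and 20 CPM (3.30-fold higher, 2.30 to 4.83). BAX went from 32.9 to 44.9 and 55.8 CPM in LNCaP_FGC (1.69-fold higher, 1.42 to 2.02) and from 65.3 to 70.2 and 80.2 CPM in LNCaP_C4-2B (1.23-fold higher, 1.08 to 1.40). PMAIP1 was at 21.1, 20.3 and 14.9 CPM in LNCaP_FGC (a ratio of 0.706, 0.538 to 0.923) and at 9.24, 12.3 and 12 CPM in LNCaP_C4-2B (a ratio of 1.30, 0.916 to 1.84). BBC3 and BAX were thus higher in cells with more UMIs of the other p53 targets in both libraries. Over cells of all phases PMAIP1 was lower in LNCaP_FGC, and its ratio in LNCaP_C4-2B had an interval that holds both 1 and the BAX ratio.

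RPS27L supplied 56.3% of the p53 score in LNCaP_FGC and GDF15 supplied 47.1% in LNCaP_C4-2B, and 28.1% of the low and 65.1% of the high tertile of LNCaP_FGC were in G1. Without RPS27L and GDF15, an alternative added after the data were seen, the BBC3 ratio was 2.82 in LNCaP_FGC (1.88 to 4.33) and 2.41 in LNCaP_C4-2B (1.73 to 3.41). In G1 cells alone the BBC3 ratio was 2.94 (1.70 to 5.34) and 4.25 (2.59 to 7.31), and the BAX ratio 2.43 (1.85 to 3.21) and 1.30 (1.07 to 1.59). The lower PMAIP1 in LNCaP_FGC was not kept, with a ratio of 0.971 in G1 cells alone (0.583 to 1.62). Without RPS27L and GDF15 it was 0.812 (0.624 to 1.05). In LNCaP_C4-2B these PMAIP1 ratios were 1.73 (0.885 to 3.52) and 1.36 (0.966 to 1.93), with intervals that hold 1.

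The third ranking used 25 genes of the integrated stress response, the program run by ATF4. PMAIP1, a known ATF4 target, stood at 9.47, 14.8 and 32.2 CPM by tertile in LNCaP_FGC (3.39-fold higher, 2.54 to 4.59) and at 7.42, 11.7 and 14.4 CPM in LNCaP_C4-2B (1.94-fold higher, 1.36 to 2.80). The share of G1 cells was 73% in the low and 22.9% in the high tertile of LNCaP_FGC, and 47.9% and 46.5% in LNCaP_C4-2B. In G1 cells alone the PMAIP1 ratio was 2.85 in LNCaP_FGC (1.69 to 5.01) and 2.07 in LNCaP_C4-2B (1.06 to 4.24). BBC3 was at 10.1, 9.01 and 6.83 CPM in LNCaP_FGC and at 8.78, 9.24 and 17 CPM in LNCaP_C4-2B. The balance was lower with this score in LNCaP_FGC, at -0.27 in the low and -0.68 in the high tertile, and was -1.90 and -1.88 in the low and high tertile of LNCaP_C4-2B.

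**Figure D5:**
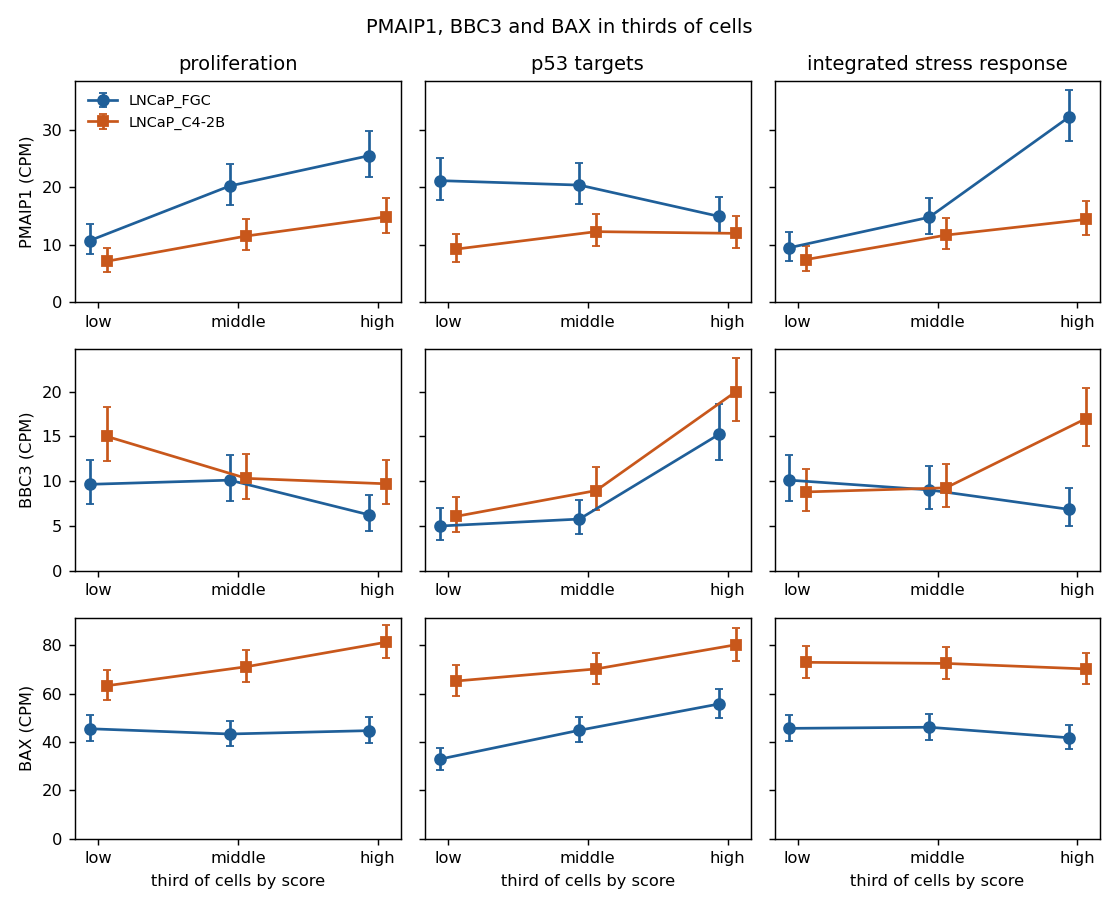
CPM of PMAIP1, BBC3 and BAX in tertiles of cells ranked by the proliferation, p53 target and integrated stress response scores at equal depth, in LNCaP_FGC (blue circles) and LNCaP_C4-2B (orange squares), with exact Poisson 95% intervals. BBC3 went from 4.97 to 15.2 CPM along the p53 score in LNCaP_FGC, and PMAIP1 from 9.47 to 32.2 CPM along the stress response score.

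The other genes of the pathway were read between the libraries by the same 1.5-fold rule. Over all 14142 genes tested, 23.8% were higher and 23.4% lower, and the counts below stand beside these shares. Of 13 further BCL2 family genes, 9 had enough UMIs, of which 6 were higher in LNCaP_C4-2B and 2 lower, and their median log2 ratio lay 0.91 above that of the median gene. BNIP3 and BNIP3L, mitophagy genes that respond to hypoxia, were 3.26-fold (3.18 to 3.33) and 1.73-fold higher (1.66 to 1.80), and BOK, an effector-like gene, 1.71-fold higher (1.52 to 1.92). The 2 lower genes, named after their values were seen, were BCL2L2, the anti-apoptotic gene of BCL-w (13.3 CPM in LNCaP_FGC and 4.92 CPM in LNCaP_C4-2B), and BMF, a BH3-only gene (2.05 and 0.455 CPM). BCL2A1 and BCL2L10 had 1 and 2 UMIs in LNCaP_FGC and 0 in LNCaP_C4-2B.

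Of 25 apoptosome and caspase genes, 7 were higher and 6 lower, near the shares over all genes (23.8% and 23.4%), with a median of 0.038. ENDOG, VDAC2 and BIRC5 were 2.02-fold, 1.64-fold and 1.39-fold higher by CPM. CASP8, the caspase that cleaves the BID protein, was 2.91-fold lower in LNCaP_C4-2B (48.8 CPM in LNCaP_FGC and 16.8 CPM in LNCaP_C4-2B), where BID itself was higher. BIRC2, a gene of the inhibitor of apoptosis family, was 2.47-fold lower. Of 24 p53 targets, 4 were higher and 12 lower (beside 23.8% and 23.4% of all genes), with a median of -0.52. GDF15, FDXR and DDB2 were 6.87-fold, 2.25-fold and 1.57-fold higher, and CDKN1A, SESN1 and RPS27L were 4.99-fold, 4.77-fold and 4.57-fold lower. BAX and BBC3, higher in LNCaP_C4-2B, thus stood on the side of the smaller number of p53 targets.

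Of 25 integrated stress response genes, 16 were higher and 0 lower (beside 23.8% and 23.4% of all genes), with a median of 1.18. SLC7A5, DDIT4 and NUPR1 were 21-fold, 6.40-fold and 5.52-fold higher. PMAIP1, which was higher in cells with more UMIs of this list, was lower in LNCaP_C4-2B by CPM. Read against the median gene, as these genes were, it lay within 1.5-fold (-0.32 on the log2 scale). Of 24 genes that regulate the family, 1 was higher (BAG1, 1.18-fold by CPM) and 6 were lower. These counts stand beside the same 23.8% and 23.4%, and the median was -0.066. NFKB1, a subunit gene of NF-kappaB, was 2.93-fold lower, and ETV1 had 0 UMIs. Between LNCaP_FGC cells without and with ETV1, 3 of 22 apoptosome and caspase genes tested were higher without it, beside 4.26% of all genes. These were CASP2 (a ratio of 1.59), CFLAR (1.79) and BIRC3 (2.08, at 17 CPM without ETV1 and thus below 20 CPM). Of the 22 genes, 0 were lower, beside 4% of all genes. GDF15 was the 1 of 24 p53 targets past the limit in that comparison, with a ratio of 0.382 (0.341 to 0.426).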

How the data were processed

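The deposited files hold UMI counts per gene and cell for 1 library of each line, which the authors made with Cell Ranger 6.0 on GRCh38 and Seurat 5.011, per the submitters' processing notes. The authors removed cells by genes, reads, hemoglobin, ribosomal and mitochondrial percentages and doublet score (no further doublet call was made here), drew 1850 cells per line and randomly reduced the counts to a mean of 19000 UMIs per cell, so the original depth is unknown. The members and lists were chosen with earlier results of these data known. UMIs were summed over cells and scaled to CPM, where 1 UMI is 0.0284 CPM and 3 UMIs (0.0853 CPM) were taken as the floor. Ratios have exact conditional intervals, levels exact Poisson intervals and shares Clopper-Pearson intervals, at 95%. A gene needed 50 UMIs over both groups, and was counted as higher or lower at 1.5-fold from the median gene. CellCycleScoring (Seurat 5.3.0 in R 4.3.3) gave the phases, library by library. For ETV1, tertiles and shares of cells, cells were drawn down to 11901 UMIs (percentile 10 of LNCaP_C4-2B), leaving out 227 LNCaP_FGC and 185 LNCaP_C4-2B cells. All 10 members were described. From each list, up to 3 genes in each direction with the largest ratios among those counted and at least 20 CPM were named, and 2 genes that this rule names are not reported here. Alternatives were TMM (edgeR 4.0.16) and median-of-ratios (DESeq2 1.42.0) factors, other totals, filters, folds, depths, phases and members. Positions are from GENCODE 44, and promoters from RefSeq. The ratio script was tested on simulated counts (Python 3.11.15, numpy 2.4.6, scipy 1.17.1).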

Additional observations from a re-analysis of the deposited data

Results flagged for a closer look

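The BBC3 ratio along the integrated stress response score lay on opposite sides of 1 in the libraries. From the low to the high tertile its ratio was 1.93 in LNCaP_C4-2B (1.39 to 2.70) and 0.677 in LNCaP_FGC (0.451 to 1.01), and these intervals did not overlap, although that of LNCaP_FGC holds 1. With 1 library per line the difference between the lines was not tested. Among G1 cells alone the ratios were 2.28 (1.45 to 3.65) and 0.909 (0.536 to 1.54), with intervals that overlapped.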

How the results depend on the processing

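No paired analysis was possible because each line has 1 library. Between the lines, the count of lower members was 6 in place of 3 by plain CPM and when the totals left out mitochondrial and ribosomal protein genes. It was within 1.5 times of 3 under the other 8 settings run, and the count of higher members under all 10. For ETV1, the count of higher members was 1 in place of 0 without thinning (BCL2), with another draw of the thinning (BBC3), in G1 cells (BAK1) and in S cells (BID), and the count of lower members was 1 at or above the median of KLK3 (BBC3). In S cells the count of lower members was 0 with a fold of 2 in each line. In LNCaP_C4-2B with a filter of 10 UMIs it was 0 in S, and the count of higher members was 2 in S and in G2M. In G2M cells of LNCaP_FGC, the count of higher members was 1 at equal depth and with a fold of 2, and that of lower members was 2 with both libraries scored together, 0 at equal depth and 0 with a fold of 2. In G2M cells of LNCaP_C4-2B the count of lower members was 0 with a fold of 2. The cause of these moves was not tested, other than that a higher fold and another filter change which genes are counted.

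The balance of LNCaP_FGC, -0.43, turned to 1.18 with BAX and BAK1 alone as the pro-apoptotic side, 0.14 with the BH3-only genes alone and 0.0037 without BAX, and was -0.49 with other family members added and -1.72 without MCL1. In LNCaP_C4-2B, -1.86, it was -0.55, -1.11, -1.19, -1.98 and -2.79 under the same settings. The difference between the lines, -1.43, was -1.72 with the effectors alone, -1.26 with the BH3-only genes alone, -1.07 without MCL1 and -1.20 without BAX, and the difference by ETV1, -0.099, was -0.32 with the effectors alone. These follow from which genes are summed.

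Among single genes, the BBC3 ratio over tertiles of proliferation in LNCaP_FGC, -0.63 on the log2 scale, was 0.58 in G1 cells alone, and the BCL2L11 ratio over tertiles of p53 targets in LNCaP_C4-2B, -0.82, was 0 without RPS27L and GDF15. Depth limits BCL2 most, whose 94 and 28 UMIs give an interval from 2.18-fold to 5.32-fold lower.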
